A study of Mus musculus with 15 samples.

Results

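The 7 genomic intervals described here come from the study's list of mouse piRNA clusters and passed the threshold in both assays of pseudouridine (Ψ) in testis small RNA. In the input libraries most counts had the length of piRNAs in 6 of them and not in the interval on chromosome 13. The word cluster is used here for any entry of that list. They are named by chromosome, start and end in mm10 as the study lists them: chr4_62217000_62243631, chr6_58097541_58105677, chr7_52906440_52921728, chr8_93409087_93427979, chr10_75832055_75903885, chr12_4106391_4110575 and chr13_23430593_23453778. They were chosen by measured values, as the clusters with an adjusted p-value under 0.01 both in Ψ-IP against input and in CMC against mock, out of 647 clusters. For these 2 comparisons their values are therefore a description without a test. The paper, with DESeq2 on counts per cluster, reported none of the clusters as significantly enriched or depleted. It proposes that the specificity lies in sequence and not in locus. The calls used here came from edgeR and differ from that result. The intervals run from 4.18 kb (chr12) to 71.8 kb (chr10). They held 268543 of the 8128951 loci counted, a locus being 1 genomic interval on 1 strand with the number of reads mapped to exactly that interval.

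All 15 libraries were made from small RNA of whole testis of male C57Bl/6 mice aged 8 weeks, with 3 libraries per group and no genetic change in the labels of any group. In the CMC set, RNA treated with CMC was set beside mock-treated RNA, which the sample titles call untreated, and libraries were made with a NEBNext kit. In the IP set, RNA bound by a mouse monoclonal antibody against Ψ (Ψ-IP) and the unbound flow-through of that IP were set beside the input, and libraries were made with a Nextflex kit. Levels are CPM, counts scaled to a library total of 1000000, and a difference in level between the 2 sets is not tested because kit and size range differ. Nothing in the sources says that replicates were separate mice, so p-values measure only the spread between these libraries. Total counts ranged from 24154811 to 58399368 in the CMC set and from 11575705 to 25063656 in the IP set. Marker genes of testis cell types could not be read from counts of small RNA, and the most frequent length in mock and input was 30 nt in every cluster other than chr13.

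piRNAs are small RNAs bound by PIWI proteins of the germline, where they silence transposons and, in the adult testis, accumulate in large amounts from long single-stranded precursors that are cut into small RNAs beginning mostly with uridine. Ψ is an isomer of uridine that pseudouridine synthases make within RNA. The antibody binds Ψ, so that RNA carrying it is recovered in the IP, whereas CMC forms an adduct on Ψ that stops reverse transcriptase, so that such RNA is depleted from the library.

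Sequence was taken from GENCODE exons (GRCm38, the assembly also called mm10) and covers loci inside exons only, which among the abundant loci left chr8 and chr12. Capitals mark T, which is uridine or Ψ in the RNA. The first sequence, given because its 5′ end carried the CMC change of that cluster, is the most abundant locus of the chr8 cluster, on the minus strand at chr8:93419670-93419699 in an exon of the lincRNA Gm30132, with 14 T in 30 nt. The following pair are the same RNA 1 and 2 nt shorter at the 5′ end, which became more frequent after CMC treatment. The fourth is the abundant chr8 locus with the lowest fold change in Ψ-IP, at chr8:93417177-93417206 on the minus strand of the same gene, with 5 T. The fifth is the most abundant locus of the chr12 cluster, at chr12:4108501-4108530 on the plus strand in a UTR of Dnajc27, with 6 T.
chr8 most abundant locus: TcTTTccgTgTgTgcTgTgacaTTTTgTcc
chr8 most abundant locus, 1 nt shorter: cTTTccgTgTgTgcTgTgacaTTTTgTcc
chr8 most abundant locus, 2 nt shorter: TTTccgTgTgTgcTgTgacaTTTTgTcc
chr8 locus lowest in Ψ-IP: TgaaaagaTgcaTccaaaagccTcTggagc
chr12 most abundant locus: TaaaaggaTaaagaggTcTggcaTacggcT

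The clusters chr4, chr6, chr7 and chr8 were higher in Ψ-IP than in input and lower after CMC than after mock treatment, 2 (chr10 and chr12) moved the other way in both, and chr13 was lower in both. Among all clusters, 9.87% were higher and 10.4% lower in Ψ-IP (547 tested), and 1.08% were higher and 1.08% lower after CMC (646 tested). Of 546 clusters tested in both comparisons, these 7 passed in both by edgeR without a block. The groups of the 7 clusters did not overlap in 5 cases in Ψ-IP, where 39.9% of all clusters did not, and in 7 cases with CMC, where 30.7% did not. The choice of the clusters fixed these counts. The cluster closest to the threshold from inside was chr7, with 0.00858 as the larger of its 2 adjusted p-values. The first outside were chr13_49887681_49894954, at 0.0127 where the log2 fold change was 0.25 in Ψ-IP and -0.15 with CMC, and chr14_19623455_19654875, at 0.0131 with -0.25 and 0.12. Without mock replicate 2 or without CMC replicate 2, 0 of the 7 passed with CMC by edgeR's quasi-likelihood test, while 118 and 142 of all clusters were under 0.05 before adjustment. Without mock replicate 1 or 3, 2 of the 7 passed with CMC. In Ψ-IP 4 of the 7 passed without input replicate 3, 5 without input replicate 1 or Ψ-IP replicate 2, and 6 without input replicate 2. A fit of CMC against mock that blocked on the replicate number called 28 higher and 20 lower, and 26 clusters, the 7 among them, passed in both comparisons under such fits.

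The chr8 cluster read 3485, 3431 and 3450 CPM in the input libraries and 3723, 3839 and 3668 CPM in Ψ-IP. It read 3194, 3320 and 3277 CPM after mock treatment and 2884, 3023 and 2953 CPM after CMC. All 3 Ψ-IP libraries were above all inputs and all 3 CMC libraries below all mocks, with log2 fold changes of 0.125 and -0.135. At chr4 the input read 10060, 10800 and 10360 CPM and Ψ-IP 11610, 11430 and 11580 CPM. After mock treatment chr4 read 15190, 15450 and 15270 CPM and after CMC 14240, 13820 and 13980 CPM. Its log2 fold changes of 0.16 and -0.12 were of a similar size, and its groups did not overlap in either set.

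At chr7 the input libraries read 5323, 5772 and 5101 CPM and the Ψ-IP libraries 5636, 6423 and 5998 CPM. These groups overlapped, with 8 of 9 pairs of libraries in the direction of the log2 fold change of 0.17. Mock treatment gave 11270, 11040 and 11130 CPM at chr7 and CMC 10300, 9694 and 9612 CPM, without overlap and with a log2 fold change of -0.17. The chr6 cluster had the highest fold change of the 7 in Ψ-IP, at 0.40 on the log2 scale. It read 270.6, 287.2 and 270 CPM in input and 346.7, 384.6 and 351.4 CPM in Ψ-IP. After mock treatment it read 201.6, 200.1 and 189.4 CPM and after CMC 164.1, 173.1 and 155.5 CPM, a log2 fold change of -0.25.

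The chr10 cluster, the longest and most abundant of the 7, was lower in Ψ-IP and higher after CMC. It read 15540, 15000 and 15570 CPM in input and 14240, 13110 and 13990 CPM in Ψ-IP, a log2 fold change of -0.15. It read 15640, 15620 and 15890 CPM after mock treatment and 16820, 17010 and 16900 CPM after CMC, a log2 fold change of 0.115. The chr12 cluster moved in the same directions at a far lower level. It read 40.02, 42.72 and 41.59 CPM in input and 34.43, 31.62 and 32.21 CPM in Ψ-IP, a log2 fold change of -0.33. With mock treatment it read 56.07, 56.46 and 54.94 CPM and with CMC 62.36, 63.59 and 64.92 CPM, a log2 fold change of 0.20.

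The chr13 interval stood apart from the other 6 in level and in what it held. It read 31.64, 28.97 and 36.61 CPM in input and 30.32, 19.61 and 21.22 CPM in Ψ-IP, and Ψ-IP replicate 1 lay within the inputs. In the CMC set it was near the lower limit of what was tested, at 2.75, 2.74 and 2.50 CPM after mock treatment and 1.27, 1.61 and 1.39 CPM after CMC. On the log2 scale it stood at -0.46 in Ψ-IP and at -0.93 with CMC. For CMC the minimum of 100 counts was applied to the mock libraries only, where chr13 had 98, 160 and 100 counts. After CMC it had 62, 39 and 38, so it was tested only through the group in which it was high.

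**Figure D1:**
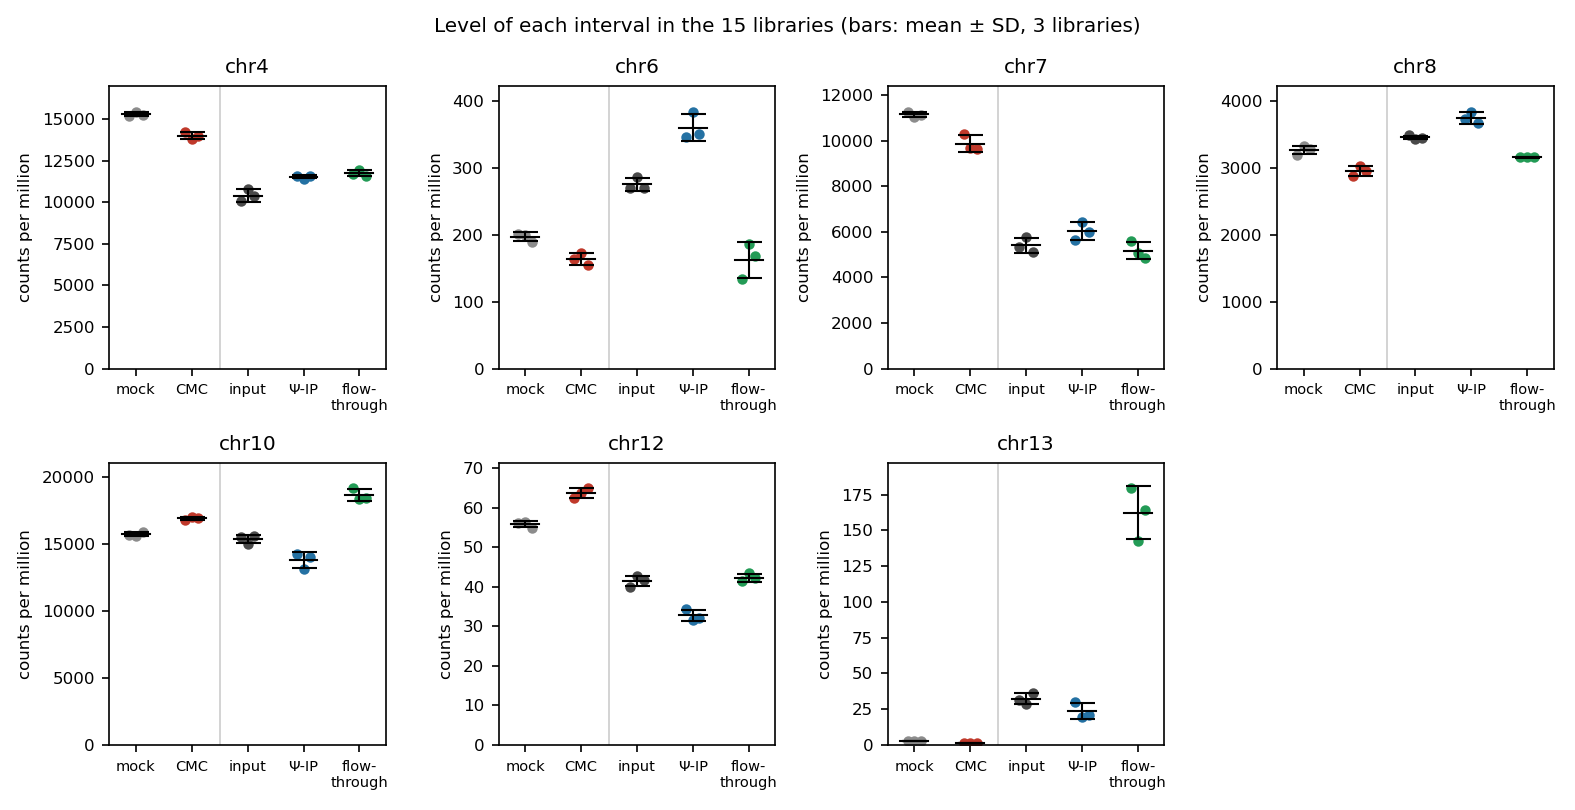
Level of each of the 7 clusters (y axes, CPM, each starting at 0) in the 5 groups (x axes), with 1 point per library, bars at the mean and whiskers of 1 SD over 3 libraries. The vertical line parts the CMC set from the IP set. In flow-through the chr13 interval averaged 162.3 CPM against 32.4 in input, and at chr6 162.8 against 275.9.

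**Figure D2:**
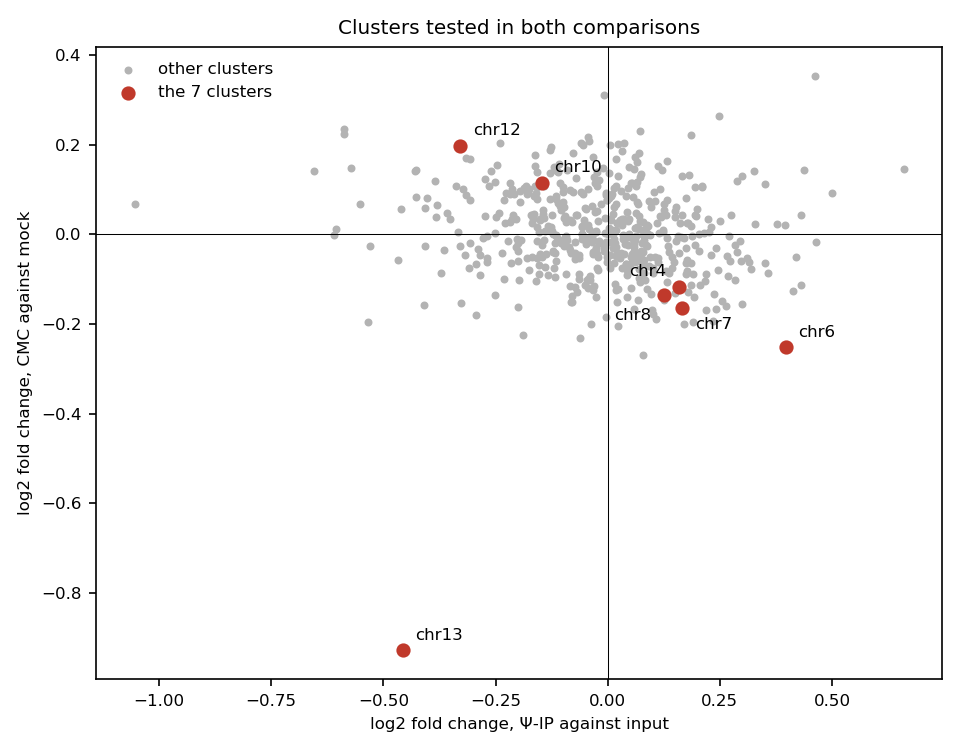
The 546 clusters tested in both comparisons, with the log2 fold change of Ψ-IP against input (x axis) and of CMC against mock (y axis). The 7 clusters are in red: chr4, chr6, chr7 and chr8 lie at the lower right, chr10 and chr12 at the upper left and chr13 at the lower left.

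The flow-through was not used to choose the clusters and could be tested, although it shares the 3 input libraries with the Ψ-IP comparison. Choice by a ratio to these inputs favours the same sign in flow-through, so the test is not fully independent of the choice. RNA held by the antibody is missing from the unbound fraction, so the question was which clusters fell in it. Among all 585 clusters tested, 15.7% were higher and 19.1% lower in flow-through (edgeR's quasi-likelihood test, adjusted p-value below 0.01). Of the 7 clusters 3 were higher and 2 lower, and the same 5 were those whose groups did not overlap, beside 59.3% of all clusters.

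The chr6 cluster, with a raised level in Ψ-IP, fell in flow-through, from 275.9 ± 9.75 CPM in input to 162.8 ± 26.7 CPM (SD, n = 3 each). The 3 flow-through libraries read 133.5, 185.8 and 169.2 CPM, all below the inputs, -0.75 on the log2 scale (SE 0.09, adjusted p = 9.234e-06 by edgeR). The chr8 cluster fell too, by less, from 3455 ± 27.3 CPM to 3160 ± 6.72 CPM (SD, n = 3 each). Its flow-through libraries read 3168, 3156 and 3157 CPM, -0.12 on the log2 scale (edgeR adjusted p = 0.001987). Single libraries decided that call, which did not hold without input replicate 1 (-0.10, edgeR adjusted p = 0.04328), without input replicate 3 (-0.10, edgeR adjusted p = 0.03749) and without flow-through replicate 2 (-0.12, edgeR adjusted p = 0.0104). It was also lost with DESeq2's size factors (-0.09, edgeR adjusted p = 0.01041) and when loci in repeats were left out (-0.08, edgeR adjusted p = 0.03998).

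The chr4 cluster, also above input in Ψ-IP, was above input in flow-through as well, at 11730, 11940 and 11570 CPM (log2 fold change 0.18, edgeR adjusted p = 0.0001063). The shared inputs favour this sign for a cluster chosen above input. The chr10 cluster, below input in Ψ-IP, rose in flow-through to 19160, 18370 and 18400 CPM, from 15370 ± 321 to 18640 ± 444 CPM (SD, n = 3 each). That was 0.29 on the log2 scale (SE 0.025, adjusted p = 5.498e-07 by edgeR). The chr7 cluster read 5588, 5056 and 4858 CPM in flow-through and overlapped the input (log2 fold change -0.05, edgeR adjusted p = 0.3993). Without flow-through replicate 1 it was called lower, at -0.11 (edgeR adjusted p = 0.005681). The chr12 cluster, at 41.36, 43.38 and 42.15 CPM, also overlapped (log2 fold change 0.04, edgeR adjusted p = 0.6045).

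The chr13 interval rose to 179.5, 142.9 and 164.5 CPM in flow-through. With 2.33 on the log2 scale (SE 0.09, adjusted p = 2.649e-10 by edgeR) it ranked 1 of the 585 clusters by p-value. Its counts lay at or beside tRNA genes, as described further on with the single loci.

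Lengths were taken apart in each cluster, below 24 nt, 24 to 33 nt and above 33 nt, where 24 to 33 nt covers the usual piRNA sizes. In 6 clusters, all but chr13, the class of 24 to 33 nt held 93.3 to 98.7% of the counts in group means. Loci above 33 nt occurred in the IP set only, since the CMC set ended at 33 nt.

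Within 24 to 33 nt, the flow-through changes were close to those of all lengths. They were 0.29 at chr10 (edgeR adjusted p = 1.35e-06), 0.18 at chr4 (edgeR adjusted p = 0.0002783), -0.76 at chr6 (edgeR adjusted p = 1.584e-05) and -0.13 at chr8 (edgeR adjusted p = 0.001602) on the log2 scale. At chr7 (-0.06, edgeR adjusted p = 0.4057) and chr12 (0.02, edgeR adjusted p = 0.8313) the class did not pass, and chr13 had too few counts to be tested. Of all 570 clusters tested in this class, 93 were higher and 111 lower. In Ψ-IP, as a description, the class stood at 0.17 at chr4, 0.41 at chr6, 0.14 at chr8, -0.12 at chr10 and -0.33 at chr12. With CMC it stood at -0.13 at chr4, -0.27 at chr6, -0.18 at chr7, -0.15 at chr8, 0.11 at chr10 and 0.195 at chr12.

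Above 33 nt, 112 of 196 clusters were higher and 0 lower in flow-through by edgeR's test, with a median log2 fold change of 0.73 over the 196. At chr7 these long RNAs read 122, 127.5 and 101.3 CPM in input and 260.8, 203.6 and 212.4 CPM in flow-through, 0.96 on the log2 scale (edgeR adjusted p = 3.631e-09). At chr4 the change was 0.86 (edgeR adjusted p = 1.409e-07) and at chr8 0.60 (edgeR adjusted p = 0.000406), near that median. At chr10 it was 0.33 (edgeR adjusted p = 0.0358) and at chr6 -0.48 (edgeR adjusted p = 0.2285), and neither passed. In Ψ-IP these long RNAs stood at -0.77 at chr10, -0.27 at chr8, -0.26 at chr4 and 0.17 at chr6. The sign at chr4 and chr8 was thus opposite to that of all lengths, where the median over 152 clusters was -0.24.

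Below 24 nt, 74 of 231 clusters were lower and 11 higher in flow-through, with a median log2 fold change of -0.32. The chr7 cluster was among the lower ones, with 206, 166.4 and 228.7 CPM in input and 85.51, 101.4 and 80.46 CPM in flow-through (log2 fold change -1.16, edgeR adjusted p = 3.159e-14). The chr13 interval was among the higher ones (2.34, edgeR adjusted p = 8.302e-45). In Ψ-IP, scaled to the libraries of all lengths, the class had a median of -0.82 over 165 clusters, and the 6 of the 7 clusters measured there lay between -1.13 (chr7) and -0.29 (chr10). With TMM computed within the class the sign turned in 5 of these 6, to 0.46 at chr10, 0.45 at chr4, 0.29 at chr13, 0.18 at chr6 and 0.16 at chr8, so that no direction is given for them. The chr7 cluster was negative under both scalings (-0.37 within the class), and read -1.13 below 24 nt, 0.20 at 24 to 33 nt and 0.36 above 33 nt in Ψ-IP. With CMC, chr13 was at -1.44 below 24 nt and the other 6 clusters between -0.02 and 0.23.

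The clusters differed in the lengths of their piRNAs. In mock libraries, 29 to 31 nt, the size usually bound by PIWIL1 (MIWI), held 74.1% of the counts at chr7, 72.9% at chr8, 65.6% at chr6 and 57.5% at chr4, and 46.7% at chr10 and 44.7% at chr12. Lengths of 25 to 27 nt, usual for PIWIL2 (MILI), were at 34.3% at chr12 and 30.5% at chr10, against 20.8% at chr4, 13.4% at chr6, 11.6% at chr8 and 9.47% at chr7. The pair of clusters below input in Ψ-IP thus held the largest shares of 25 to 27 nt among these 6, in mock libraries. In input the order at 25 to 27 nt was chr12 (28.7%), chr4 (20%), chr10 (18.6%), chr6 (11.5%), chr8 (9.42%) and chr7 (6.30%), so chr4 and chr10 changed places. At chr13 the most frequent lengths were 20 and 21 nt in place of 30 nt.

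**Figure D3:**
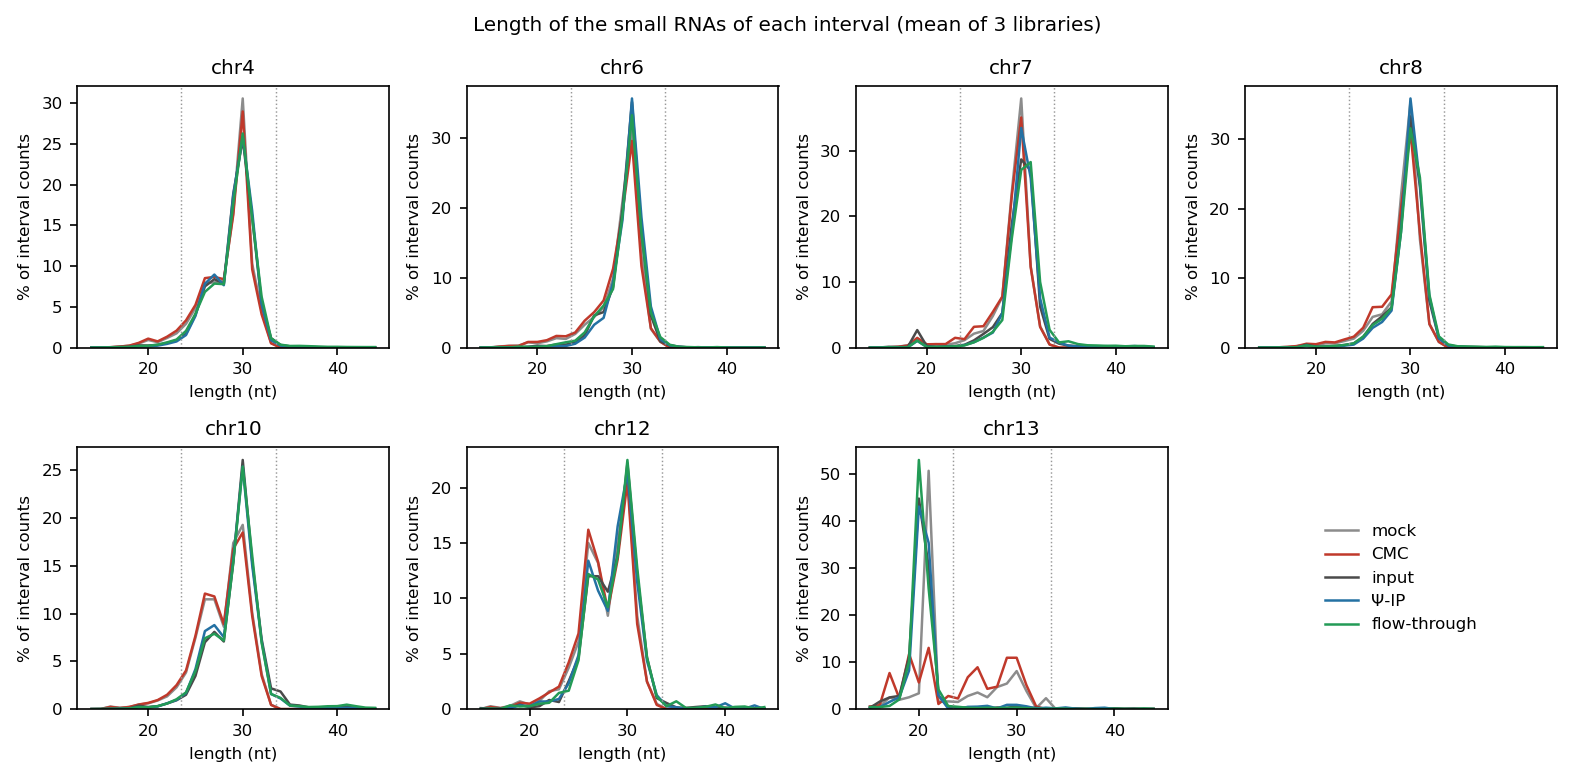
Length of the small RNAs of each cluster (x axes, nt) as a share of the cluster's counts (y axes, %), as the mean of 3 libraries in each of the 5 groups. The dotted lines part lengths below 24 nt, 24 to 33 nt and above 33 nt. In input, 96.4% of the chr13 counts lay below 24 nt, against 1.43 to 3.75% in the other 6 clusters.

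In all clusters but chr4 the counts lay on 1 strand or nearly so. In mock libraries the plus strand held 99.5% of the chr10 counts, 100% of those of chr6 and chr12 and 98.3% of those of chr7, while the minus strand held 100% at chr8 and 92.9% at chr13. At chr7 the plus strand share was 94.4 ± 0.772% in input and 92.8 ± 0.158% in flow-through (SD, n = 3 each). The two-sided exact permutation test gave p = 0.1, the lowest value that 3 against 3 allows.

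Counts of the chr4 cluster lay on both strands, with 46.4% on the plus strand in mock libraries. Around the position 62229765 its loci were mirrored, so that 20340 pairs of loci on opposite strands lay at equal distances from it, and they held 84.5% of the cluster's counts. Among the 66 most abundant pairs, 54 had levels within 10% of each other, with a median ratio of 0.99. On the best axis of each other cluster with RNA on both strands, 6 to 8 pairs of the 300 most abundant loci were mirrored, against 186 at chr4. The most abundant pair was chr4:62224996-62225025 on the minus strand, with 1160, 1070 and 1050 CPM after mock treatment, and chr4:62234506-62234535 on the plus strand, with 1090, 995 and 980 CPM. How reads with several alignments were counted is not given in the sources used here, so chr4 reads cannot be assigned to 1 arm or 1 strand. The strand split therefore does not show that both strands were transcribed, and a change at an arm is not separate evidence from a change at its mirror.

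Gene annotation placed little of these RNAs in coding exons. The chr12 cluster lies in Dnajc27, which encodes a DnaJ-domain Rab-like GTPase, and 99.2% of its counts fell in a UTR on the strand of the gene. The chr8 RNAs came from the strand of the lincRNA Gm30132 (90.5% of counts), antisense to Gm45765. The chr4 cluster overlaps Zfp37, a zinc finger gene, with 0.193% of counts in exons. The chr10 cluster spans Gstt2 (a glutathione S-transferase), Mif (a cytokine), the pseudogene Gm47744, Derl3 (a protein of endoplasmic reticulum-associated degradation) and part of Smarcb1 (a SWI/SNF subunit), with 0.196% of counts in exons and 2.05% antisense to Mif. No gene overlapped chr6, where Vmn1r-ps16 lies 2386 nt away and Gm6695 5294 nt away, or chr7, where Gm22444 lies 5342 nt and Gm6181 150712 nt away. The chr13 interval overlaps the lincRNAs C230035I16Rik and Gm46404, with 1.03% of counts at the latter.

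Outside the CMC-treated libraries, repeats held the largest share at chr7, where LINE loci, nearly all L1Lx, made up 12.8% of counts in mock libraries, 34.3 to 36.8% in input, 38.5% in Ψ-IP on average and 27.9% in flow-through. In flow-through the share was lower than in input by 7.9 percentage points (two-sided exact permutation test, p = 0.1, the lowest possible). The difference between mock and input at the same tissue went with the kit of the 2 sets, whose part was not tested. At chr10, LTR loci were at 3.33% in mock libraries and 8.03% in input, 5.77% in Ψ-IP and 6.90% in flow-through, with MLTR14, an ERV1 element, at 805 CPM in input and 373 CPM in Ψ-IP.

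Counts within a cluster were spread over many loci, but unevenly so. The most abundant 5′ end held 4.41% of counts at chr10, 5.81% at chr4, 7.19% at chr6, 11.3% at chr8, 19.6% at chr12, 22% at chr7 and 84.8% at chr13. Single ends therefore carried different parts of each change.

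At chr8, 1 end accounted for more than the whole change with CMC. The RNAs starting at 93419699 on the minus strand, which include the first sequence, read 884, 1040 and 1040 CPM after mock treatment and 576, 590 and 601 CPM after CMC, and all CMC libraries were below all mocks. The rest of the cluster read 2310, 2280 and 2240 CPM after mock treatment and 2310, 2430 and 2350 CPM after CMC, and these groups overlapped. On average the cluster changed by -310 CPM, this end by -397 CPM and the rest by 86.7 CPM. In Ψ-IP the same end was 2.37 times its input, at 173, 204 and 169 CPM against 61.2, 93.2 and 76.8 CPM, and the rest of the cluster 1.05 times. In flow-through this end was at 42.7, 53.7 and 38.2 CPM, below all inputs. Its most abundant locus fell there by 0.86 on the log2 scale (edgeR adjusted p = 0.00467), where 9.73% of all 686863 loci tested were lower and 6.45% higher. The locus lowest in Ψ-IP, the fourth sequence, read 11.4, 9.66 and 13.1 CPM in input and 3.00, 1.90 and 2.26 CPM in Ψ-IP, and 13.7, 7.12 and 13.6 CPM in flow-through (log2 fold change -0.20, edgeR adjusted p = 0.569).

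At chr7 the most abundant end, at 52909517 on the plus strand, was 1.71 times its input in Ψ-IP and 0.525 times in flow-through. Of the average Ψ-IP change of 621 CPM at chr7, this end made 325 CPM, and the rest of the cluster, at 1.06 times input, overlapped between the groups. Its main locus, chr7:52909517-52909546, read 224, 281 and 261 CPM in input, 464, 676 and 490 CPM in Ψ-IP and 90.8, 85.8 and 82.4 CPM in flow-through (log2 fold change -1.77, edgeR adjusted p = 5.71e-08). That locus was high in the bound and low in the unbound fraction. Other chr7 loci did otherwise. The second most abundant, chr7:52911903-52911933 in L1Lx, was at -0.16 in Ψ-IP and fell by 0.84 on the log2 scale in flow-through (edgeR adjusted p = 0.00034). The chr7 locus highest in Ψ-IP, chr7:52909793-52909822 in L1Lx, read 18.8, 14.7 and 19.3 CPM in input, and it was raised both in Ψ-IP, at 106, 71.9 and 82.9 CPM, and in flow-through, at 107, 83.8 and 73.7 CPM (log2 fold change 2.12, edgeR adjusted p = 5.34e-08). A rise in both fractions over the shared input was also found at chr4:62222890-62222919, the locus highest in Ψ-IP there (1.95 in Ψ-IP, and 2.26 in flow-through with an edgeR adjusted p = 1.58e-07). Loci named as highest or lowest in Ψ-IP were picked by a ratio to the same inputs, so their flow-through values are not independent of that choice.

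At chr6 the most abundant end was at 22.9 ± 6.79 CPM in input, 52.2 ± 10.2 CPM in Ψ-IP and 7.43 ± 2.97 CPM in flow-through (SD, n = 3 each), and at 0.512 ± 0.1 CPM in mock libraries. Its locus chr6:58101727-58101756 fell in flow-through by 1.25 on the log2 scale (edgeR adjusted p = 0.00409). The locus chr6:58101964-58101991 read 5.98, 5.97 and 6.04 CPM in input, 15.3, 12.2 and 15.4 CPM in Ψ-IP and 0.698, 1.94 and 1.68 CPM in flow-through (log2 fold change -2.28, edgeR adjusted p = 9e-06). The rest of the chr6 cluster moved in the same directions as this end, at 1.22 times input in Ψ-IP and 0.614 times in flow-through.

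At chr10 the counts came from 116662 loci with 27924 5′ ends, which did not all move one way. In Ψ-IP 469 of 10173 loci were higher (4.61%) and 1150 lower (11.3%), near the 5.45% and 10.7% of all loci, so this mix is no trait of chr10. Ends above their input level held 50.2% of the counts. The 2 most abundant loci had opposite signs in Ψ-IP. The locus chr10:75856719-75856749 was at -0.50 in Ψ-IP and 0.54 in flow-through (edgeR adjusted p = 0.0161). The locus chr10:75857111-75857140 was at 0.71 in Ψ-IP and rose in flow-through by 1.03 (edgeR adjusted p = 9.72e-05). An MLTR14 locus, chr10:75861375-75861404, read 458, 405 and 488 CPM in input and 167, 140 and 192 CPM in Ψ-IP, and 404, 383 and 475 CPM in flow-through (log2 fold change -0.31, edgeR adjusted p = 0.165). At chr12 all 3 most abundant loci shared the start 4108501, and the end at that start read 2.98 ± 0.828 CPM in input and 5.6 ± 0.778 CPM in flow-through (SD, n = 3 each).

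Along the clusters, cut into 10 equal windows, the Ψ-IP ratio was below 0 on the log2 scale in 8 of 10 windows at chr10, from -0.77 to 0.17, while the CMC ratio was above 0 in 9 of 10. At chr12 it was below 0 in all 3 windows with 50 or more counts per library. The clusters higher in Ψ-IP were mixed. At chr8, 4 windows were above 0 and 5 below, and after CMC 7 were above 0 and 3 below, although the whole cluster was lower after CMC. The window of the end at 93419699 was the lowest with CMC, at -0.38. At chr4, 2 of the 8 windows, with 262.7 and 234.1 CPM in input, were at -0.40 and -0.57 in Ψ-IP, and these central windows lay between windows at 0.38 and 0.27. In flow-through 7 of 8 windows at chr6 were below 0, from -1.61 to 0.37, and 7 of 8 at chr4 above.

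**Figure D4:**
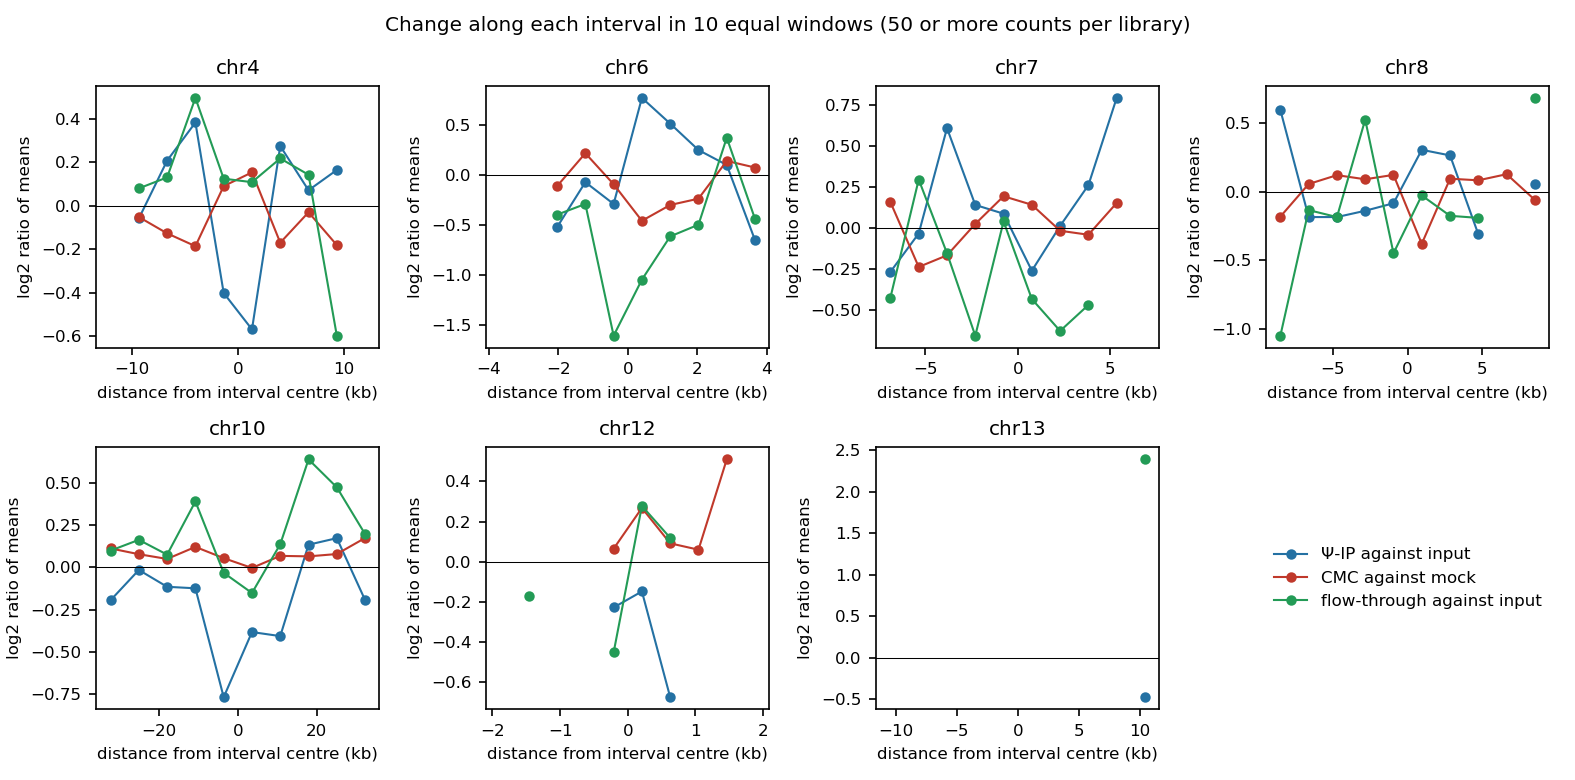
Change along each cluster in 10 windows of equal length, as the log2 ratio of group means (y axes) by distance from the centre of the interval (x axes, kb), for windows with 50 or more counts per library. At chr4 the Ψ-IP values are nearly mirrored about the centre, and at chr6 the flow-through values lie below 0 in 7 of 8 windows.

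Single loci were tested where they had more than 20 counts in a set. In flow-through, 1756 of 24696 loci tested from the 7 clusters were higher and 1885 lower (edgeR adjusted p under 0.01), beside the 6.45% and 9.73% of all loci. The direction differed by cluster. At chr10 788 of 10173 loci were higher (7.75%) and 660 lower (6.49%), and at chr4 666 of 7992 were higher (8.33%) and 499 lower (6.24%). At chr8 133 of 3334 were higher (3.99%) and 338 lower (10.1%), at chr7 161 of 2839 were higher (5.67%) and 352 lower (12.4%), and at chr6 2 of 303 were higher and 35 lower (11.6%). The 38 loci tested at chr12 had a median log2 fold change of 0.12. In Ψ-IP, 1222 of the loci were higher and 2404 lower, where 5.45% and 10.7% of all loci were, and after CMC 273 of 20965 were higher and 205 lower, where 1.07% and 0.654% of all 556583 were. The lower loci outnumbered the higher ones in Ψ-IP also at chr8, chr4 and chr7, whose sums were higher. At chr8 299 were lower (8.97%) and 186 higher (5.58%), and at chr4 673 were lower (8.42%) and 407 higher (5.09%). At chr7 268 were lower (9.44%) and 142 higher (5.0%). All loci showed such an excess, so it is no trait of these clusters. At chr6, whose sum was higher too, 13 were lower (4.29%) and 18 higher (5.94%). Among 11077 loci tested in both comparisons, 48 were higher in Ψ-IP and lower after CMC (0.433%), 25 of them at chr7, and 19 were lower in Ψ-IP and higher after CMC (0.172%). Of all 293568 loci tested in both, 0.298% and 0.19% did so. The clusters were chosen by these 2 comparisons, so nothing is read from the difference.

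The chr13 counts lay at or beside tRNA genes. RefSeq lists 10 in the interval, and loci within 30 nt of them held 99.1 ± 0.295% of the counts in input, 98.1 ± 1.4% in Ψ-IP and 99.5 ± 0.0912% in flow-through, and 72.4 ± 5.56% in mock libraries (SD, n = 3 each). The authors had set tRNA fragments aside before mapping, so what remained here had passed that step. One leucine tRNA gene, n-TLcag10, was at 27.4 CPM in input, 19.7 CPM in Ψ-IP and 143 CPM in flow-through. Nearly all of its counts (98.3%) shared 1 end, at 23453439 on the minus strand, 7 nt inside the lower edge of the gene, and ran out of the gene from there. The most abundant of them, chr13:23453420-23453439, had 8 of its 20 nt in the gene and 12 outside. The gene table gives no strand for it. The end at 23453439 read 26.7, 24.1 and 31.1 CPM in input, 25.9, 14.8 and 17.5 CPM in Ψ-IP and 161, 121 and 144 CPM in flow-through, 5.2 times input. An isoleucine gene, n-TIaat8, was at 0.819 CPM in input and 6.56 CPM in flow-through, and a tyrosine gene, n-TYgta7, at 1.49 and 4.59 CPM.

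In the CMC set that end had 0 counts in mock libraries and 1 count in CMC replicate 2. The chr13 values of the 2 assays therefore came mostly from RNAs with different starts. The CMC values rested on 98 to 160 counts per mock library and 38 to 62 per CMC library. Most of the CMC change lay at the end 23453450 on the minus strand, which averaged 1.13 CPM after mock treatment and 0.109 CPM after CMC. That end made -1.03 CPM of the average change of -1.24 CPM. Like the end at 23453439, it lies in the gene n-TLcag10. With 96.4% of its input counts below 24 nt, the interval goes against its label as a piRNA cluster in the IP set, and 65.2% of its mock counts and 45.6% of its CMC counts were below 24 nt.

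At loci of 24 to 33 nt for which a sequence could be read, 92.5% of the counts began with T at chr8 (21092 loci), 90.7% at chr12 (2522 loci), 88.7% at chr10 (6551 loci) and 75.8% at chr4 (2068 loci), as mean CPM over the 15 libraries. By number of loci the shares were 55.3% at chr8, 71.9% at chr12, 55.1% at chr10 and 50.6% at chr4, so the abundant RNAs were the ones that began with T. At chr8 loci with a sequence held 90.4% of the counts of this length, whereas at chr10 they held 4.33% and at chr4 0.66%. Base content over a whole abundant cluster could therefore be described for chr8 only, where T made up 33.4% of all positions weighted by counts and 29.4% of the reference bases read.

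Uridine content was set beside the changes at chr8 after the data had been seen, as a description. Over 178 chr8 loci of at least 50 counts, from 109 5′ ends, Spearman's rho between the share of T and the log2 fold change in Ψ-IP was 0.38, and -0.62 in flow-through. Over 261 loci from 119 ends it was -0.74 with CMC. With 1 value per 5′ end the values were 0.31, -0.67 and -0.75. Loci at the same end share reads, and all points share the libraries of a comparison, so no p-value is given. Loci with at least 36.7% T had a median log2 fold change of 0.61 in Ψ-IP and of -1.55 in flow-through, and loci with at most 26.7% T had -0.45 and 0.20. With CMC, loci of at least 35.5% T were at a median of -0.50 and those of at most 25.8% T at 0.20. Uridine-rich chr8 loci were thus the ones higher in the bound fraction, lower in the unbound one and lower after CMC. Locus length had rho values between -0.10 and -0.02 in the 3 comparisons, while the share of A had -0.43 in Ψ-IP, 0.59 with CMC and 0.08 in flow-through. The share of C had 0.24, 0.0093 and 0.54 in the same order, and that of G -0.13, 0.19 and 0.30, so the bases moved together and the part of each was not tested. At chr10, rho for T over 74 loci was -0.56 with CMC, and over 29 loci 0.15 in Ψ-IP and -0.19 in flow-through. These loci held at most 2.25% of the counts of that cluster.

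**Figure D5:**
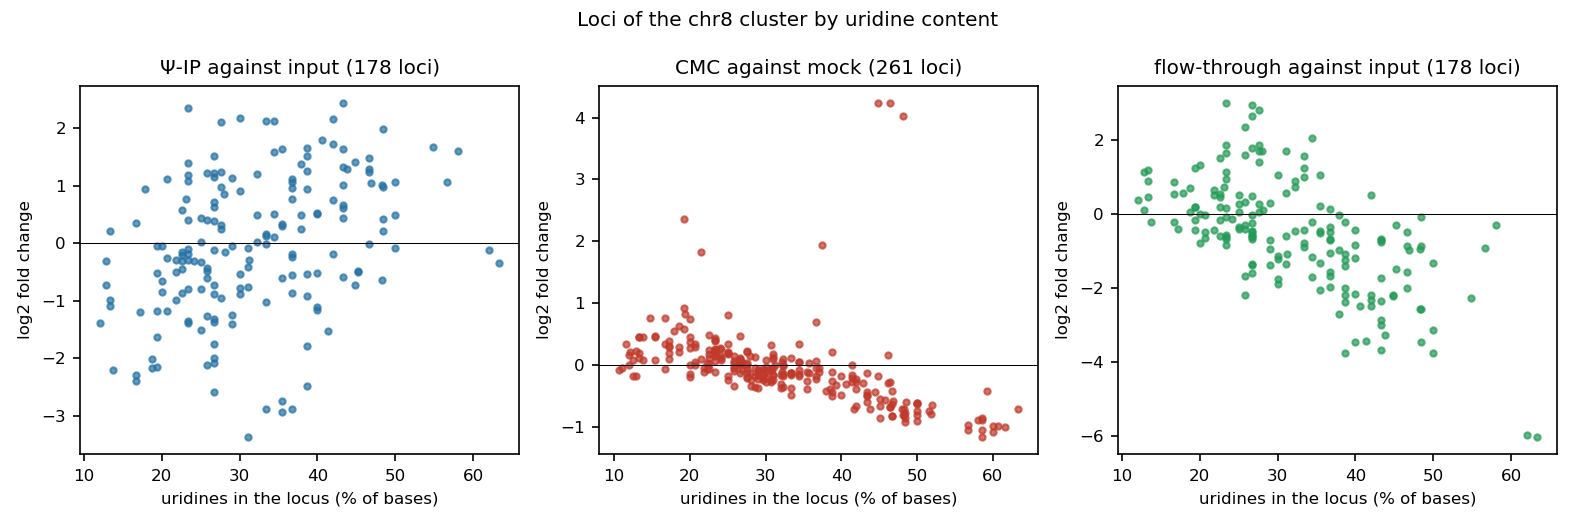
Loci of the chr8 cluster of 24 to 33 nt and at least 50 counts, by the share of uridine (T) among their bases (x axes, %) and their log2 fold change (y axes) in Ψ-IP against input (178 loci), CMC against mock (261 loci) and flow-through against input (178 loci). Values lean upwards with uridine in Ψ-IP (Spearman's rho 0.38) and downwards with CMC (-0.74) and in flow-through (-0.62).

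Partners of abundant loci that were shorter at 1 end were counted in the CMC set, again as a description made after the data had been seen. For 260 loci of the 7 clusters with at least 1000 mock counts, from chr4, chr7, chr8 and chr10, the partner 1 nt shorter at the 5′ end stood at a median of 0.34% of the full-length locus after mock treatment and 0.843% after CMC. It was higher without overlap in 155 loci and lower in 3. Over all 5775 such loci the shares were 63.9% higher and 0.346% lower, so the 59.6% found in these clusters was near the background. The partner 1 nt shorter at the 3′ end was higher in 63 of 260 loci and lower in 18, where 20.2% and 7.97% of all were. These shares are no result about the 7 clusters, since loci of other clusters shifted alike.

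Some abundant loci had large rises of a form shorter at the 5′ end, which were not ranked against those of other loci. Over all 5775 loci of at least 1000 mock counts, the 5′ partner was higher without overlap in 43.4% (2 nt shorter), 32% (3 nt) and 21.5% (4 nt). The chr7 locus chr7:52909517-52909546 had a partner 3 nt shorter at the 5′ end with 10, 15 and 16 counts after mock treatment and 1621, 854 and 1026 counts after CMC, or 0.312 ± 0.0763 and 35.3 ± 2.19 CPM (SD, n = 3 each), 113 times as much. Its partners 1 and 2 nt shorter rose 2.63 and 3.32 times only, while the full-length locus went from 2110 to 1790 CPM. The third most abundant chr7 locus, chr7:52908184-52908213, had a partner 4 nt shorter with 14, 30 and 28 counts after mock treatment and 642, 485 and 618 after CMC, 34.8 times as much by CPM. Of the most abundant chr8 locus, the form 2 nt shorter had 17, 22 and 17 counts after mock treatment and 273, 217 and 299 after CMC, or 0.426 and 8.50 CPM on average, and the form 1 nt shorter had 8, 7 and 4 and then 139, 57 and 92 (19.3 times). The form 3 nt shorter overlapped between the groups, at 0.724 and 0.581 CPM. By contrast the most abundant chr4 locus and its mirror had partners 1 nt shorter that rose 1.53 and 1.64 times. No form of the most abundant chr12 locus shortened at the 5′ end passed 4 counts in any library of the CMC set, which is too few to compare.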

How the data were processed

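Per the labels and the methods, the authors size-selected small RNA from testis, clipped reads with Cutadapt, kept 14 to 44 nt, set tRNA fragments aside, mapped the rest to mm10 with Bowtie 2 allowing 0 to 3 mismatches, and intersected alignments with repeats and piRNA clusters with BEDTools. The deposited values are raw counts per genomic interval and strand, 1 file per library. Loci were summed over both strands within each cluster, by any overlap. Only the intervals were taken from the study's cluster list. Clusters with an average of at least 100 counts per library, and loci with more than 20 counts in total over a set, were tested with edgeR 4.0.16 (TMM, quasi-likelihood test, Benjamini-Hochberg over all features) in R 4.3.3, in separate fits of 6 libraries. The average was taken over the Ψ-IP libraries for Ψ-IP, the mock libraries for CMC and all 6 libraries for flow-through. DESeq2 1.42.0 was an alternative. Length classes used the library sizes and TMM factors of all lengths, with an average of at least 20 counts below 24 and above 33 nt over the same libraries. Named loci were the 3 most abundant of each cluster and, among loci of at least 100 counts on average (50 in the 3 clusters of lowest counts), the highest and lowest in Ψ-IP. The members, the gene rule and the tests were chosen with earlier results of these data known. On simulated cluster counts, 134 of 200 changed clusters were recovered for flow-through, 150 for Ψ-IP and 174 for CMC. Same-numbered mock and CMC libraries deviated together over loci (correlation 0.12 to 0.28), so a fit with replicate number as a block is given beside the CMC counts. Libraries of 1 group differed beyond counting noise (chi-square per degree of freedom 3.27 to 38.1). Counts are not independent molecules. Of all intervals in the 7 clusters, 60 were listed under 2 repeat labels and counted under each.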

Additional observations from a re-analysis of the deposited data

How the results depend on the processing

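Over the other normalizations, filters and tests tried, 186 values of single clusters kept their side of the threshold, 7 of them not called and with a changed sign. Another 8 lost and 4 gained the call, and 4 that were called under one of the settings changed sign, at chr8 with CMC without its 5 most abundant loci (0.0096), and below 24 nt in Ψ-IP with TMM computed within that class at chr10 (0.46), chr4 (0.45) and chr8 (0.16). CMC changed 14 clusters (7 higher, 7 lower), and 31 with DESeq2's Wald test, 25 with 24 to 33 nt only and TMM within that class, 22 with loci outside repeats, while DESeq2's size factors gave 4 higher and 7 lower. With the factors of all lengths, 24 to 33 nt gave 4 higher and 6 lower of 639. There chr10 (edgeR adjusted p = 0.02785) and chr4 (edgeR adjusted p = 0.01671) did not pass. Without 1 library the number ranged from 0 (without mock or CMC replicate 2) to 23. In flow-through it was 204 and ranged from 130 to 226, and in Ψ-IP 111, from 68 (without input replicate 1 or 3) to 112. Of the 7 clusters, 4 to 6 passed in flow-through. In Ψ-IP 5 of the 7 passed with DESeq2's Wald test and 5 with loci outside repeats. With CMC 6 of the 7 passed with DESeq2's Wald test and 5 without the 5 most abundant loci of each cluster. Called loci of the 7 clusters numbered 3641 in flow-through (1809 to 4047), 3626 in Ψ-IP (1938 to 3635) and 478 with CMC (225 to 575), and 1123, 940 and 255 with an average of at least 50 counts, where fewer loci were tested. The cause of the other differences was not tested.

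The labels do not say that equal replicate numbers mark a pairing. Deviations of same-numbered libraries over clusters correlated at -0.012 to 0.021 in flow-through, -0.039 to 0.048 in Ψ-IP and 0.032 to 0.23 with CMC, and over loci at -0.087 to 0.13, -0.028 to 0.29 and 0.12 to 0.28, so that with CMC all pairs passed 0.1 over loci and 2 of 3 over clusters. With a replicate block, 189 clusters were called in flow-through, 124 in Ψ-IP and 48 with CMC, and 3541, 3106 and 625 loci of the 7 clusters.

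Depth limited chr12, with 366 to 1003 counts in the IP set, and chr13 in the CMC set. With 3 libraries per group, exact permutation tests cannot give p below 0.1, and a p-value that missed the threshold does not show equal levels.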
